A study of Sparus aurata with 9 samples.

Results

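miR-126 is the microRNA (miRNA) best known from endothelium, the inner lining of blood vessels, and it was measured here by small RNA sequencing in muscle cell cultures of gilthead sea bream (Sparus aurata). Its members were all entries of the deposited miRNA table whose miRBase name is miR-126, with any letter, arm or end variant. There were 4 such entries, each with its own sequence, among 862 entries in all. The table holds 9 libraries in 3 groups of 3. All cells came from fast-twitch skeletal muscle and were grown in complete medium to day 8. Control cells (labelled C, here CTR) were then kept 36 h in nutrient restriction medium. Cells of the AA group spent 12 h in that medium and 24 h with amino acids (AA), and cells of the IGF1 group spent 12 h in it and 24 h with insulin-like growth factor 1. By the study's methods these are primary cultures from fingerlings, so they are not a clonal line and can hold other cells of the muscle. The AA medium was DMEM as a whole, not amino acids alone. The growth factor came in the amino-acid-free medium with bovine serum albumin as carrier. Amino acids and growth factor therefore cannot be told apart from these other components. Fetal bovine serum is listed in the methods for the complete medium used to day 8 and for none of the media after it. The methods name 3 separate cultures for the 9 libraries, and no label ties a library to its culture. The p-values below therefore treat the 9 libraries as independent, which they may not be, and part of the spread between libraries may be technical.

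A miRNA is cut from a hairpin precursor as a duplex of a 5p and a 3p strand, and the strand that stays in the Argonaute protein silences mRNAs through its seed, bases 2 to 8. In mammals and zebrafish the hairpin of miR-126 lies in an intron of egfl7, a gene of endothelial cells. There the 3p strand sustains vascular endothelial growth factor signalling and vessel integrity by repressing Spred1 and Pik3r2, both brakes on that pathway. In mice the 5p strand also acts, through Dlk1, on endothelial proliferation. None of these targets was measured here.

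The 4 sequences are shown because they decide which strand and which seed each value belongs to. They are DNA letters as deposited, 5′ to 3′, with the seed in capitals. Names are those of the deposited table without the prefix for the fish species (salmon, zebrafish or tilapia) whose precursor was matched.
miR-126-3p: tCGTACCGtgagtaataatgca
miR-126a-3p_R+2: tCGTACCGtgagtaataatgcaa
miR-126 (5p arm): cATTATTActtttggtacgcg
miR-126b-5p_L+1: cCATTATTacttttggtacgcg
The first pair are 22 and 23 nt long, share 1 seed and differ by 1 further A at the 3′ end. The second pair are 21 and 22 nt long, and the longer one has 1 further C at its 5′ end, which moves its seed by 1 base. Apart from these end bases the sequences within an arm are identical, so the letters a and b of the names do not separate loci by these sequences. The number of other sequences in the table with any of these 3 seeds was 0. In a predicted duplex the 22-nt 3p and the 21-nt 5p strand formed 18 base pairs, 2 of them G-U pairs, and each strand kept 2 unpaired bases at its 3′ end. On the 3p strand these are the usual overhang of a Drosha and Dicer product. At the other end base 1 of the 3p strand was unpaired as well, so the 2 bases of the 5p strand are not all overhang.

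Values are the authors' normalized reads, and their normalization formula is not given in the sources used here. Low values fell mostly on whole multiples of a step that was constant in a library, and this step was taken to be 1 read. The depth inferred from it ranged from 7045311 to 8010694 reads for the CTR libraries, whereas the AA libraries had 9766620 to 11214788 and the IGF1 libraries 7241678 to 9534840.

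miR-126 was an abundant miRNA in these muscle cultures. Its 4 entries together held 1.16% ± 0.0737 of all normalized reads in the table (SD, n = 9 libraries), where a sequence listed under several names counts once per name. Summed by miRNA number, miR-126 ranked between 11 and 13 in the 9 libraries, among 131 numbers. The 22-nt 3p entry alone was the 8th most abundant of 830 distinct sequences. It carried 92.7% ± 0.63 of miR-126 reads, miR-126a-3p_R+2 3.82% ± 0.415, the 21-nt 5p entry 3.42% ± 0.245 and miR-126b-5p_L+1 0.0149% ± 0.00663 (SD, n = 9).

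miR-126-3p, the strand with the vascular targets known from mammals and zebrafish, lay at 81891, 84869 and 104485 normalized reads in CTR replicates 1 to 3. In AA it lay at 92404, 99292 and 96593. In IGF1 it lay at 96479, 97569 and 89236. The highest and the lowest of all 9 values were both CTR libraries, and every AA and IGF1 value fell between them. CTR had a mean of 90415 ± 12275, AA one of 96096 ± 3471 and IGF1 one of 94428 ± 4530 (SD, n = 3), so the spread was widest in CTR. This was also so over all entries tested, where the mean SD of log2(normalized reads + 1) was 0.54 in CTR, 0.34 in AA and 0.38 in IGF1. It was not so for the other abundant miR-126 entries. In the same order their SD was 0.036, 0.154 and 0.105 for miR-126a-3p_R+2 and 0.103, 0.132 and 0.142 for the 21-nt 5p entry.

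miR-126a-3p_R+2 has the same seed and an additional 3′ base. It lay at 4079, 3890 and 4035 normalized reads in CTR, at 3500, 3774 and 4323 in AA, and at 3887, 3371 and 3708 in IGF1. AA overlapped both other groups. All 3 IGF1 values were below all 3 CTR values, with a gap between 3887 and 3890 that is small beside the spread in either group. As a share of all normalized reads these groups overlapped, with IGF1 replicate 1 (0.0465%) above CTR replicates 2 (0.0452%) and 3 (0.0455%). The 21-nt 5p entry, the passenger strand by abundance, lay at 3404, 3127 and 3605 normalized reads in CTR, at 3189, 3446 and 3829 in AA, and at 3860, 3281 and 3232 in IGF1. All 3 groups overlapped.

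miR-126b-5p_L+1, with the shifted seed, was rare. It lay at 18.1, 10.4 and 7.75 normalized reads in CTR, at 5.41, 14.98 and 24.9 in AA, and at 23.7, 18.5 and 11.6 in IGF1. In inferred reads, CTR libraries had 7 to 15, AA libraries 7 to 27 and IGF1 libraries 10 to 27. In normalized reads AA held both the lowest and the highest library of this entry. The exact Poisson 95% intervals of these were 2.81 to 14.4 and 17.8 to 39.3 reads, which do not overlap and cover counting error only. These libraries were picked as the extremes, which favours intervals that do not overlap. In inferred reads, CTR replicate 3 had the same 7 and IGF1 replicate 1 the same 27.

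**Figure D1:**
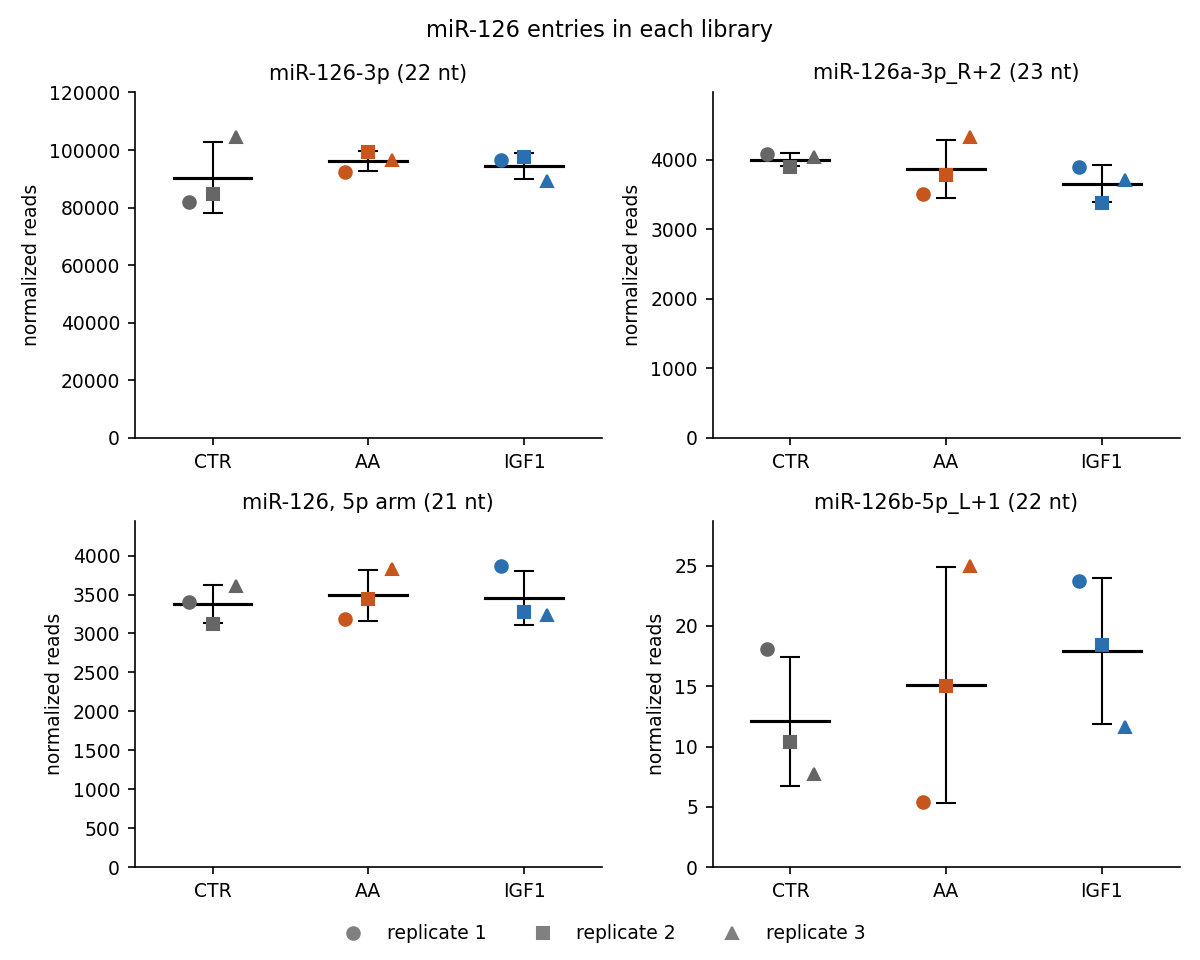
Normalized reads of each miR-126 entry (vertical axes, from 0) in the CTR, AA and IGF1 libraries. Symbols are replicates 1 to 3, wide bars are means and error bars are SD (n = 3). Group means differ by less than the SD of CTR for the 22-nt 3p and the 21-nt 5p entry. The rare miR-126b-5p_L+1 spans 5.41 to 24.9 normalized reads.

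The comparison of AA with CTR asked whether miR-126 differs once amino acids are given back. None of the 4 entries passed the limma test, while 2.36% of the 594 entries tested did, at an adjusted p under 0.05. At an unadjusted p under 0.05 there were 0 miR-126 entries and 16.5% of all entries tested. All 4 entries had met the filter on low values, 10 normalized reads or more in 3 or more libraries. miR-126-3p had a log2 fold change of 0.10 (SE 0.12, 95% interval -0.17 to 0.36, limma adjusted p = 0.702), which corresponds to a ratio of 1.07 with an interval from 0.892 to 1.28. After quantile normalization it was 0.21 (95% interval 0.05 to 0.37), an interval without 0, but the limma adjusted p of 0.222 stayed above the threshold. It was 0.03 without CTR replicate 1 and 0.20 without CTR replicate 3. The 21-nt 5p entry had a log2 fold change of 0.04 (SE 0.14, 95% interval -0.27 to 0.36, limma adjusted p = 0.88). The values were -0.06 (95% interval -0.36 to 0.25) for miR-126a-3p_R+2 and 0.16 (95% interval -1.14 to 1.46) for miR-126b-5p_L+1. For the 3 abundant entries, AA to CTR ratios below 0.78 or above 1.29 thus lay outside the intervals of the main fit, whereas for the rare entry the interval ran from 0.454 to 2.75. The absolute log2 fold change of miR-126-3p was exceeded by 84.2% of the entries tested and that of the 21-nt 5p entry by 92.9%. Non-overlapping groups occurred in 0 of 4 miR-126 entries and in 22.6% of all entries tested.

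For the growth factor the same question was put to IGF1 against CTR. No miR-126 entry passed in limma, nor did any other entry (percent called 0), while 61 of 594 entries, 10.3%, and none of the miR-126 entries had an unadjusted p under 0.05. By its own test the study listed miRNAs raised and lowered with IGF1, and more with AA than passed here. The absence of other calls thus holds for the limma fit used here. miR-126-3p had a log2 fold change of 0.07 (SE 0.12, 95% interval -0.19 to 0.33, limma adjusted p = 0.834), a ratio of 1.05 with an interval from 0.876 to 1.26. The log2 value was 0.0029 without CTR replicate 1 and 0.18 without CTR replicate 3. The 21-nt 5p entry had 0.03 (SE 0.14, 95% interval -0.29 to 0.35, limma adjusted p = 0.932). miR-126a-3p_R+2 had -0.13 (SE 0.14, 95% interval -0.44 to 0.17, limma adjusted p = 0.712). In normalized reads it was the 1 of 4 entries whose groups did not overlap, as against 13.3% of all entries tested. As a share of all normalized reads its groups overlapped. miR-126b-5p_L+1 had 0.56 (SE 0.58, 95% interval -0.74 to 1.86), which leaves ratios from 0.597 to 3.62 within the interval.

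Whether the treatments differ from each other was tested in AA against IGF1. No miR-126 entry passed in limma, against 0.842% of the entries tested, and none had an unadjusted p under 0.05, against 8.75%. The log2 fold changes were 0.03 for miR-126-3p (SE 0.12, 95% interval -0.24 to 0.29), 0.08 for miR-126a-3p_R+2, 0.01 for the 21-nt 5p entry and -0.40 for miR-126b-5p_L+1 (limma adjusted p = 0.996 each). The ratio interval of miR-126-3p was 0.849 to 1.22 and that of the 21-nt 5p entry 0.809 to 1.26. All 4 entries overlapped between AA and IGF1, whose groups did not overlap in 15.3% of all entries tested. Both treatments were compared with the same CTR libraries, so their values against CTR are not independent.

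**Figure D2:**
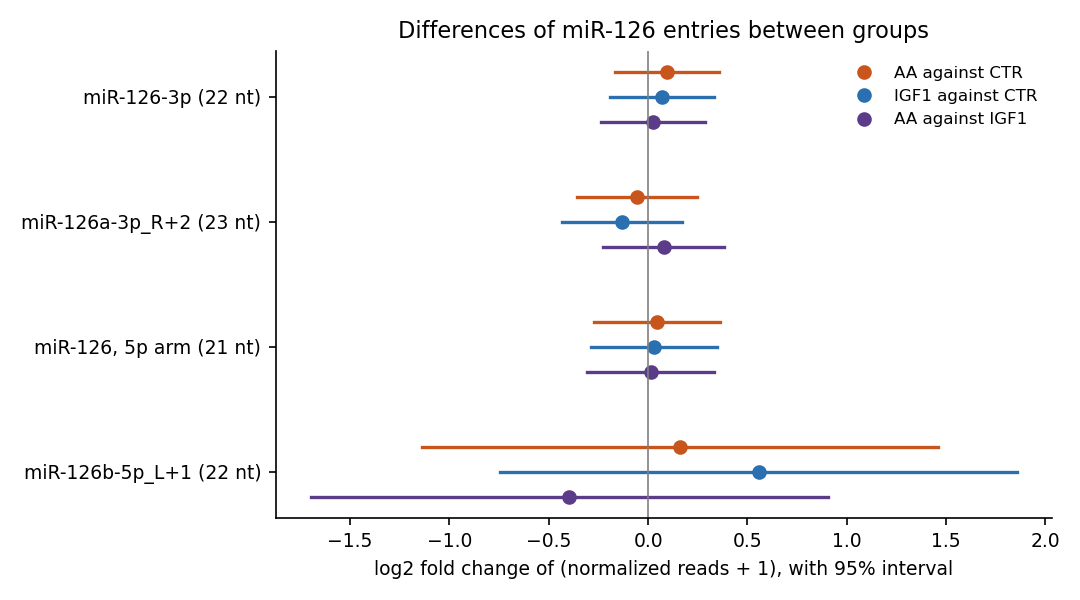
Log2 fold changes of (normalized reads + 1) for the 4 miR-126 entries in the 3 comparisons, with points for estimates and lines for 95% intervals of the limma fit over 9 libraries. Every interval of this fit includes 0; that of miR-126-3p runs from -0.17 to 0.36 for AA against CTR, and those of the rare miR-126b-5p_L+1 are several times wider.

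Ratios between entries of 1 library do not depend on how that library was scaled. The 3p arm exceeded the 5p arm by 25.1-, 28.3- and 30.0-fold in CTR, by 30.0-, 29.8- and 26.2-fold in AA and by 25.8-, 30.6- and 28.7-fold in IGF1. The groups overlapped fully, with means of 27.8 ± 2.49, 28.7 ± 2.15 and 28.4 ± 2.39 (SD, n = 3). An exact permutation test of F over every assignment of the 9 libraries to 3 groups gave p = 0.839 for this ratio (adjusted p = 0.839 over 3 ratios). Over all 9 libraries the ratio ranged from 25.1 to 30.6.

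The share of longer 3p ends was a little more variable. Per 100 reads of the 22-nt 3p entry there were 4.98, 4.58 and 3.86 of the 23-nt entry in CTR, 3.79, 3.80 and 4.48 in AA and 4.03, 3.46 and 4.16 in IGF1. CTR held the highest value and IGF1 the lowest, and all groups overlapped (exact permutation test of F, p = 0.339, adjusted p = 0.839). The 5p entry with the shifted seed stood at 0.532, 0.332 and 0.215 per 100 reads of the 21-nt entry in CTR, 0.17, 0.435 and 0.651 in AA and 0.614, 0.563 and 0.359 in IGF1. These also overlapped (p = 0.611, adjusted p = 0.839, same exact test). Between pairs of groups the smallest of the 9 two-sided exact permutation p-values was 0.2, where 3 libraries against 3 cannot go below 0.1.

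**Figure D3:**
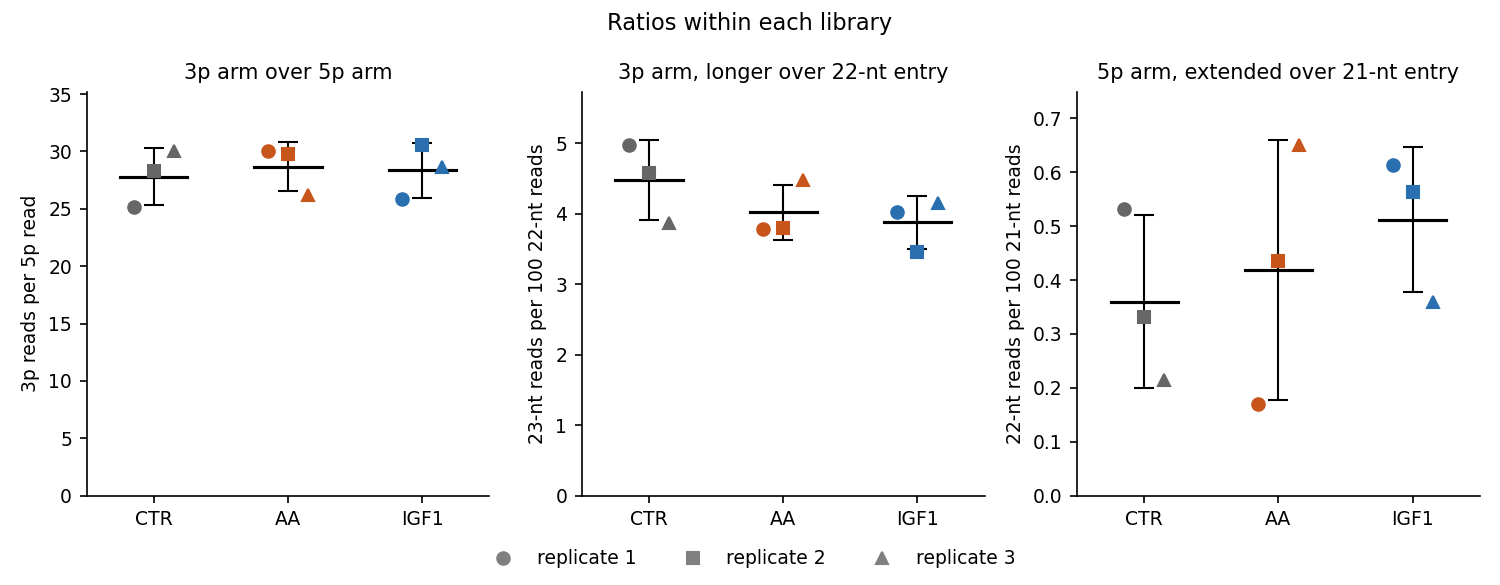
Ratios of miR-126 entries within each library: 3p over 5p arm (left), 23-nt per 100 reads of the 22-nt 3p entry (middle) and extended per 100 reads of the 21-nt 5p entry (right), by group. Symbols are replicates, wide bars means and error bars SD (n = 3); the arm ratio stays between 25.1 and 30.6 in all 9 libraries.

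Among sequences of like abundance the miR-126 entries varied little. Over the 9 libraries the SD of log2(normalized reads + 1) was 0.11 for miR-126-3p, and 1 of the 14 other tested sequences with a mean within 2-fold had a smaller one, at a median of 0.18. It was 0.11 for miR-126a-3p_R+2, with 3 of 60 such sequences below it and a median of 0.26, and 0.11 for the 21-nt 5p entry, with 2 of 61 below it and a median of 0.28. The highest library exceeded the lowest 1.28-fold, 1.28-fold and 1.23-fold in these entries. miR-126b-5p_L+1 had an SD of 0.68, with 74 of 129 sequences of like abundance below it, and a highest value 4.61-fold above its lowest. These ranks are a description, since abundance and spread were compared within the same libraries.

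**Figure D4:**
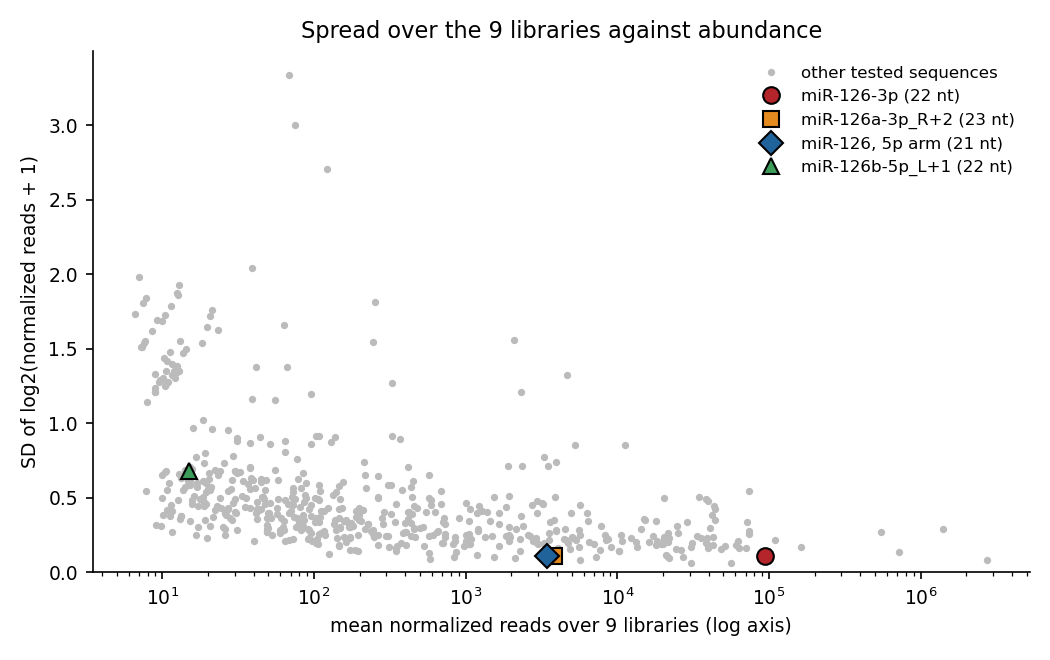
SD of log2(normalized reads + 1) over 9 libraries (vertical axis) against mean normalized reads (log axis) for the tested sequences, with the 4 miR-126 entries marked. The 3 abundant entries lie at an SD of 0.11, near the lower edge at their abundance, and the rare one lies at 0.68 among sequences of like level.

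The entries were only partly parallel across libraries. Pearson r of log2 values over the 9 libraries was 0.51 between miR-126-3p and the 21-nt 5p entry and -0.07 between miR-126-3p and its 23-nt variant. It was 0.63 between miR-126a-3p_R+2 and the 21-nt 5p entry. With group means removed, r in the same order was 0.49, 0.07 and 0.81. The rare miR-126b-5p_L+1 had r of 0.00 with miR-126-3p, 0.36 with miR-126a-3p_R+2 and 0.60 with the 21-nt 5p entry. With group means removed these were -0.08, 0.69 and 0.62. These points share library and depth, span a narrow range and are given as a description. By the same measure, the 5 entries most like miR-126-3p among 301 named sequences with at least 100 normalized reads were 2 of miR-731-3p (r = 0.87 and 0.80), a miRNA of fish, miR-146 (0.80) and miR-146a_R+2 (0.75), which dampen inflammatory signalling in mammals, and miR-155 (0.73), a miRNA of activated immune cells in mammals. After removal of group means these were 0.89, 0.78, 0.77, 0.73 and 0.78, and the median r over the candidates was -0.02. As the largest of 301 over 9 libraries, these r values are high by selection, and a shared role was not tested. For the 21-nt 5p entry the 5 were entries of the minor arms of miR-20a (0.70) and miR-17a (0.62), miR-194b (0.57), miR-107 (0.54) and miR-135a (0.53), with a median of 0.04.

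Other miRNAs with roles in vessels did not pass the limma test used here either. By its own test, the study listed miR-27c as raised and miR-27a and miR-221 as lowered with IGF1. With amino acids it listed miR-27a and miR-92a as lowered. The list of miR-23, miR-24, miR-27, miR-92, miR-132, miR-210, miR-218, miR-221, miR-222, miR-296 and miR-378, described in endothelium or vessel growth in mammals or zebrafish, had 60 tested distinct sequences from 9 of its 11 miRNAs. Of these, 0 passed in limma in either direction in AA against CTR, IGF1 against CTR or AA against IGF1, as against 2.36%, 0% and 0.842% of all entries tested. An unadjusted p under 0.05 was found for 5, 6 and 3 of the 60 sequences, as against 16.5%, 10.3% and 8.75% of all entries tested. Their median log2 fold changes were -0.03, -0.02 and -0.09, beside medians of 0.08, 0.05 and -0.00 over all entries tested. Since none passed, the sequences with the smallest p-values are named here by their values after these were seen. In AA against CTR the 5 with an unadjusted p under 0.05 had log2 fold changes below 0, and 4 of them belong to miR-92a, whose 3p strand restrains vessel growth in mice. These were miR-92a (-0.39), miR-92a-3p_R+1 (-0.45), miR-92a-3p_R+1_1ss22TC (-0.49) and miR-92a-5p_2ss10TG14CT (-0.48), and the fifth was mir-27a-p5 (-0.52), with limma adjusted p-values from 0.111 to 0.274. The first 3 are near-identical sequences, between which reads may be shared. In IGF1 against CTR, 3 of the 6 were among these and below 0, namely miR-92a-3p_R+1_1ss22TC (-0.42), miR-92a-5p_2ss10TG14CT (-0.47) and mir-27a-p5 (-0.47). The other 3 were above 0, namely miR-218b_R-2 (1.22), miR-27c-5p (2.15) and miR-27c-3p_R+2 (0.71), with limma adjusted p-values of the 6 from 0.367 to 0.468. Mean levels were low for miR-218b_R-2 (24.0 normalized reads) and miR-27c-5p (12.6, near the filter of 10), and 3887 for miR-27c-3p_R+2. In AA against IGF1 the 3 were mir-24a-4-p5 (-0.75) and a pair of miR-210-3p_R+3 entries with identical values in all 9 libraries (1.02 each; limma adjusted p = 0.553 for all 3). Their levels were also low, at means of 24.4 for mir-24a-4-p5 and 30.2 for each miR-210-3p_R+3 entry. For the 4 miRNAs named by rule, values are those of the most abundant entry alone, namely miR-221_R-1, miR-210_R+2, miR-132-3p and miR-218a. miR-221, which shapes vessel sprouts in zebrafish, lay at 56266 ± 3734 normalized reads for CTR, 49905 ± 8477 for AA and 48029 ± 3414 for IGF1 (SD, n = 3; limma adjusted p = 0.519 for AA and 0.607 for IGF1 against CTR). In the same order, miR-210, induced by low oxygen, lay at 28203 ± 4490, 31873 ± 2623 and 33230 ± 4687 (limma adjusted p = 0.551 and 0.627). miR-132, which promotes vessel growth in mice, lay at 603.6 ± 57.2, 501.8 ± 25.3 and 497 ± 54.3 (limma adjusted p = 0.411 and 0.553). miR-218, which acts on Slit and Robo guidance signals, lay at 452.1 ± 145.2, 488.7 ± 46.3 and 559.9 ± 90.7 (limma adjusted p = 0.761 and 0.627).

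Marker miRNAs of several tissues were summed per library as a description, and no reference tissue was compared. For endothelium the only marker listed was miR-126 itself. The muscle miRNAs miR-1, miR-133, miR-206 and miR-499, all 4 measured, summed to between 502621 and 871345 normalized reads per library, so that the markers of the labelled cell type were present. They lay between 720535 and 871345 in AA, above the 502772 to 701242 of CTR, and between 502621 and 642784 in IGF1, which overlapped CTR. Of this sum, miR-206 alone held between 407079 and 703945 per library. miR-126 lay between 99099 and 106527 in AA, between 89392 and 112133 in CTR and between 96187 and 104250 in IGF1. The miR-143 and miR-145 cluster of smooth muscle and pericytes, both measured, was higher than miR-126 in every library and lay between 103464 and 116460 in CTR, 120547 and 132333 in AA and 116967 and 125318 in IGF1, above CTR in both treatments. As a share of all normalized reads, AA (1.34% to 1.53%) overlapped CTR (1.20% to 1.37%), while IGF1 (1.39% to 1.49%) did not. Blood miRNAs were far lower: 4 of 5 were measured and summed to between 1634 and 3404, with the red cell miRNAs miR-144 between 0 and 15.7 and miR-451 between 199.8 and 363.5. Higher than these were the other measured members of the list, miR-142 between 509.3 and 1789 and miR-223 between 771.7 and 1333. Epithelial miRNAs, of which 4 of 5 were measured, summed to between 682.3 and 816.7 in CTR, above the 424.9 to 514.9 of AA and the 437.9 to 653 of IGF1. As a share of all normalized reads, their CTR (0.00769% to 0.00950%) and IGF1 (0.00487% to 0.00777%) values overlapped. Over all libraries the widest range among them was that of miR-203, 157.2 to 561.2 normalized reads. miR-200 lay between 178.5 and 272.5, miR-205 at 10.2 or less and miR-429 at 19.9 or less. By its own test the study listed miR-203a/b as lowered with both treatments. miR-122 of liver lay between 508.4 and 601.4 in CTR, above the 295.9 to 382.1 of AA and the 301.9 to 411.7 of IGF1. The neural miRNAs summed to between 85.9 and 165.4 and overlapped between groups, as did the blood miRNAs. Groups of single entries did not overlap in 22.6% of those tested in AA against CTR and in 13.3% in IGF1 against CTR, and the part of these marker levels in the miR-126 values was not tested. The tests cover bulk RNA, in which the number of cells with miR-126 and its level per cell cannot be told apart. The cells that held miR-126 were not identified.

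**Figure D5:**
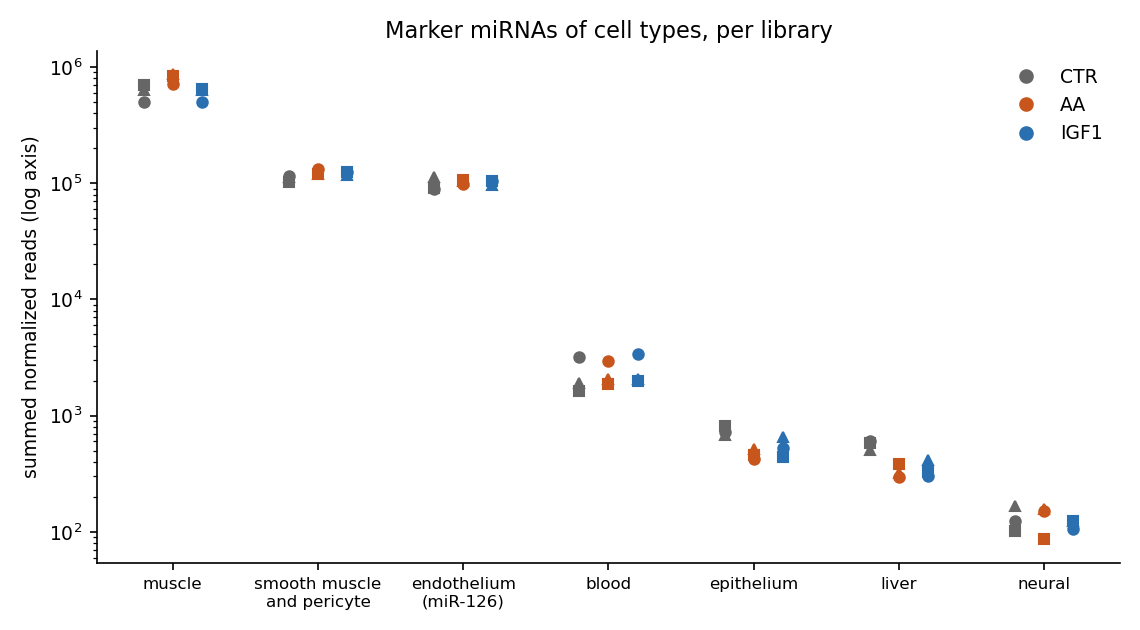
Summed normalized reads of marker miRNAs of 7 tissues or cell types (log axis) in each library, coloured by group, with circles, squares and triangles for replicates 1 to 3. miR-126, the endothelial marker, lies between 89392 and 112133, below the smooth muscle and pericyte miRNAs in every library and above blood miRNAs, at most 3404.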

How the data were processed

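The authors trimmed single-end small RNA reads with in-house scripts, retained unique 18 to 26 nt sequences and matched them by BLAST to miRBase precursors. They deposited 1 table of normalized reads, used here as a signal per entry and library, with group means, which equal the averages of the libraries, and p-values of the 3 groups. The p-values deposited by the authors were not used. The genome build is not given in the sources used here, and positions were not analysed here. Below 150 normalized reads, 79.3% to 83.1% of a library's values came out as whole reads (tolerance 0.02 reads), too few for count models. The limit for a value of 0, taken as 3 reads, was 2.32 to 3.62 normalized reads. This limit and the Poisson intervals cover counting error only, whereas limma intervals rest on the spread between libraries.

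Values entered as log2(normalized reads + 1), so fold changes of low entries are understated. The filter on low values (10 normalized reads in 3 of 9 libraries) kept 594 of 862 entries for 1 limma fit (3.58.1, R 4.3.3) over all libraries, with an intensity trend, two-sided, with Benjamini-Hochberg adjustment over those entries and a threshold of 0.05. Libraries were not paired. Ratios were tested by exact permutation (Python 3.11.15). Duplexes were predicted with ViennaRNA 2.7.2. Named miRNAs were all miR-126 entries, the 5 most like each arm, and fixed lists. The members, lists and tests were chosen with earlier results of these data known. Alternatives were 3 scalings, 2 pseudocounts, no filter, distinct sequences once, no trend, only the libraries compared, library weights, a replicate block and each library left out in turn.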

Additional observations from a re-analysis of the deposited data

How the results depend on the processing

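No alternative made a miR-126 entry pass the threshold: over 20 alternatives the 240 fold changes of the 4 entries had limma adjusted p-values of at least 0.222. The bounds of the 95% intervals for the 22-nt 3p and the 21-nt 5p entry stayed between ratios of 0.721 and 1.39. Signs of these small values were less stable, and the cause was not tested. The log2 fold change of the 22-nt 3p entry in AA against IGF1 was -0.0085 after rescaling to the same total and -0.0038 with TMM, and that of the 21-nt 5p entry -0.021 and -0.016. With weights per library the 22-nt 3p entry had -0.0029 in AA and -0.051 in IGF1 against CTR, and the 21-nt 5p entry -0.0030 and -0.0077. After quantile normalization the 22-nt 3p entry had 0.21 (95% interval 0.05 to 0.37, limma adjusted p = 0.222) in AA against CTR, 0.10 in IGF1 against CTR and 0.12 in AA against IGF1, and the 21-nt 5p entry had -0.13 in AA and -0.095 in IGF1 against CTR, and -0.038 in AA against IGF1.

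With 1 library left out, log2 fold changes in AA against CTR ran from 0.029 to 0.20 for the 22-nt 3p entry, from -0.14 to 0.014 for the 23-nt 3p entry, from -0.025 to 0.11 for the 21-nt 5p entry and from -0.29 to 0.72 for the extended 5p entry. In IGF1 against CTR they ran from 0.0029 to 0.18 for the 22-nt 3p, -0.18 to -0.076 for the 23-nt 3p, -0.051 to 0.079 for the 21-nt 5p and 0.31 to 0.87 for the extended 5p entry. For the 22-nt 3p entry the lowest value in both came without CTR replicate 1 and the highest without CTR replicate 3. In AA against IGF1 they ran from -0.014 to 0.054 for the 22-nt 3p, -0.0058 to 0.15 for the 23-nt 3p, -0.056 to 0.095 for the 21-nt 5p and -0.85 to 0.16 for the extended 5p entry. The log2 difference of the arm ratio then ran from -0.027 to 0.11 (AA against CTR), from -0.043 to 0.094 (IGF1 against CTR) and from -0.050 to 0.080 (AA against IGF1). That of longer 3p ends ran from -0.029 to 0.10 in AA against IGF1. That of the extended 5p entry ran from -0.31 to 0.66 in AA against CTR and from -0.88 to 0.094 in AA against IGF1. The other settings tried for the ratios changed no sign.

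Of 9 pairs of libraries with equal replicate numbers, 6 had correlated deviations above 0.1 (range -0.11 to 0.40). Pairs with different numbers had 3 of 18 above 0.1 (range -0.38 to 0.26), and 8 of 9 libraries correlated best with their own number. The main fit still assumed no pairing, because no label ties a library to its culture. With a replicate block the log2 fold change of the 22-nt 3p entry stayed at 0.10 in AA against CTR (limma adjusted p = 0.669), and no miR-126 entry passed. Over all entries the block gave 31 calls in place of 14 in AA against CTR, 2 in place of 0 in IGF1 against CTR and 10 in place of 5 in AA against IGF1, and over all alternatives these counts ran from 8 to 104, from 0 to 5 and from 1 to 20. Leaving out CTR replicate 1 gave 40, 2 and 13 calls in these comparisons. Omitting AA replicate 2 gave 8 in AA against CTR and 1 in AA against IGF1, where AA replicate 3 or IGF1 replicate 1 also gave 1 and IGF1 replicate 2 or 3 gave 2. Depth limits mainly the extended 5p entry, at 7 to 27 reads.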
